A study of Oryctolagus cuniculus with 30 samples.

Results

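The 10 genes described here are CPT1B, CPT2, ACADM, ACADL, ACADVL, HADHA, HADHB, ACAA2, ETFDH and PDK4. All but PDK4 take part in the oxidation of fatty acids in mitochondria, and PDK4 restrains the oxidation of pyruvate. The genes were chosen by symbol, and all 10 were found among the 31346 genes of the deposited count tables. Their mRNA was measured in mucosa dissected from the vocal folds of 15 rabbits (New Zealand white), in 5 groups of 3 animals, and the left and right fold of each animal were sequenced as separate libraries (30 in all). The VFLP (man) and VFLP (au) groups received hydrogels derived from the lamina propria of vocal folds, and the Col1 group received collagen type I. These 3 groups had the surface mucosa of both folds stripped, were injected with 20 µL in each fold on day 7 after the injury, and gave tissue 28 days after treatment. The injury only group had the same stripping without an injection and also has a collection time of 28 days after treatment. Whether that time counts from the injury is not settled here, so time after injury may differ from the injected groups. The control group (labelled "no injury/control") had no injury. What "man" and "au" stand for is not spelled out in the labels, and no sex, age or further genotype is used here. The study asked, by its title, how such hydrogels act on fibrosis in injured folds.

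Long-chain fatty acids enter the mitochondrial matrix as carnitine esters, which CPT1 makes at the outer membrane and CPT2 splits again on the inner side. In the matrix each turn of the spiral runs through an acyl-CoA dehydrogenase, a hydratase, a 3-hydroxyacyl-CoA dehydrogenase and a thiolase, and the electrons of the first step reach the respiratory chain through the electron transfer flavoprotein and ETFDH. Skeletal muscle and heart depend on this pathway: CPT1B is their form of CPT1, while CPT1A is the form of liver and most other tissues. In the larynx the vocal fold mucosa lies over the thyroarytenoid muscle.

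Libraries held between 14166322 and 31933788 gene reads. The lowest count of any of the 10 genes in a library was 108 reads (PDK4). Levels are given in CPM, the gene count relative to the library total, scaled by edgeR's TMM factors, for the summed folds of each animal. A gene was called where its Benjamini-Hochberg adjusted p, over all genes tested, was under 0.05 in edgeR's quasi-likelihood test, and all 10 genes passed the filter on low counts. The animals are the replicates. Libraries came in 2 batches: all 6 control libraries and 5 injury only libraries were in batch C, and 1 injury only library and all 18 libraries of the injected groups were in batch D. Skeletal muscle genes also separated the groups. Of 30 listed sarcomere genes 24 were found, none of them at 0 in any group, and together they took 0.0743 to 0.517% of gene reads in VFLP (man), 0.676 to 1.52% in VFLP (au), 0.333 to 0.911% in Col1, 1.03 to 2.24% in injury only and 4.72 to 7.43% in control animals. In bulk tissue, fewer muscle cells and less RNA per cell cannot be told apart.

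All 10 genes had their highest group mean in control and their lowest in VFLP (man). For CPT1B, ACADM, ACADL, ACADVL, ACAA2 and ETFDH every control animal lay above all 12 injured animals, while CPT2, HADHA, HADHB and PDK4 overlapped through injury only animal 2. How many of all genes show this order of means or this separation is not given here. An F test over the 5 groups called 10 of 10, beside 28.4% of all genes. Against control, all 10 genes were called lower in VFLP (man), where 37.3% of 17770 genes were called and 20.5% were called lower. In VFLP (au) 8 of the 10 were called lower than control (27.5% of all genes called, 16.7% lower), and in Col1 all 10 (32.1% called, 18.6% lower). In injury only 7 of the 10 were called lower than control, beside 22.1% of 17815 genes called and 13.7% called lower. These 4 comparisons share the 3 control animals. Control lay in batch C and the injected groups in batch D, so batch and treatment cannot be told apart between them. This limit holds for every later value of an injected group against control. None of the 10 passed the test between any injected material and injury only, or among the 3 materials. With a batch term, which rests on 1 injury only library, none of the 10 was called between an injected group and control. The number of all genes called in that fit is not given here.

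**Figure D1:**
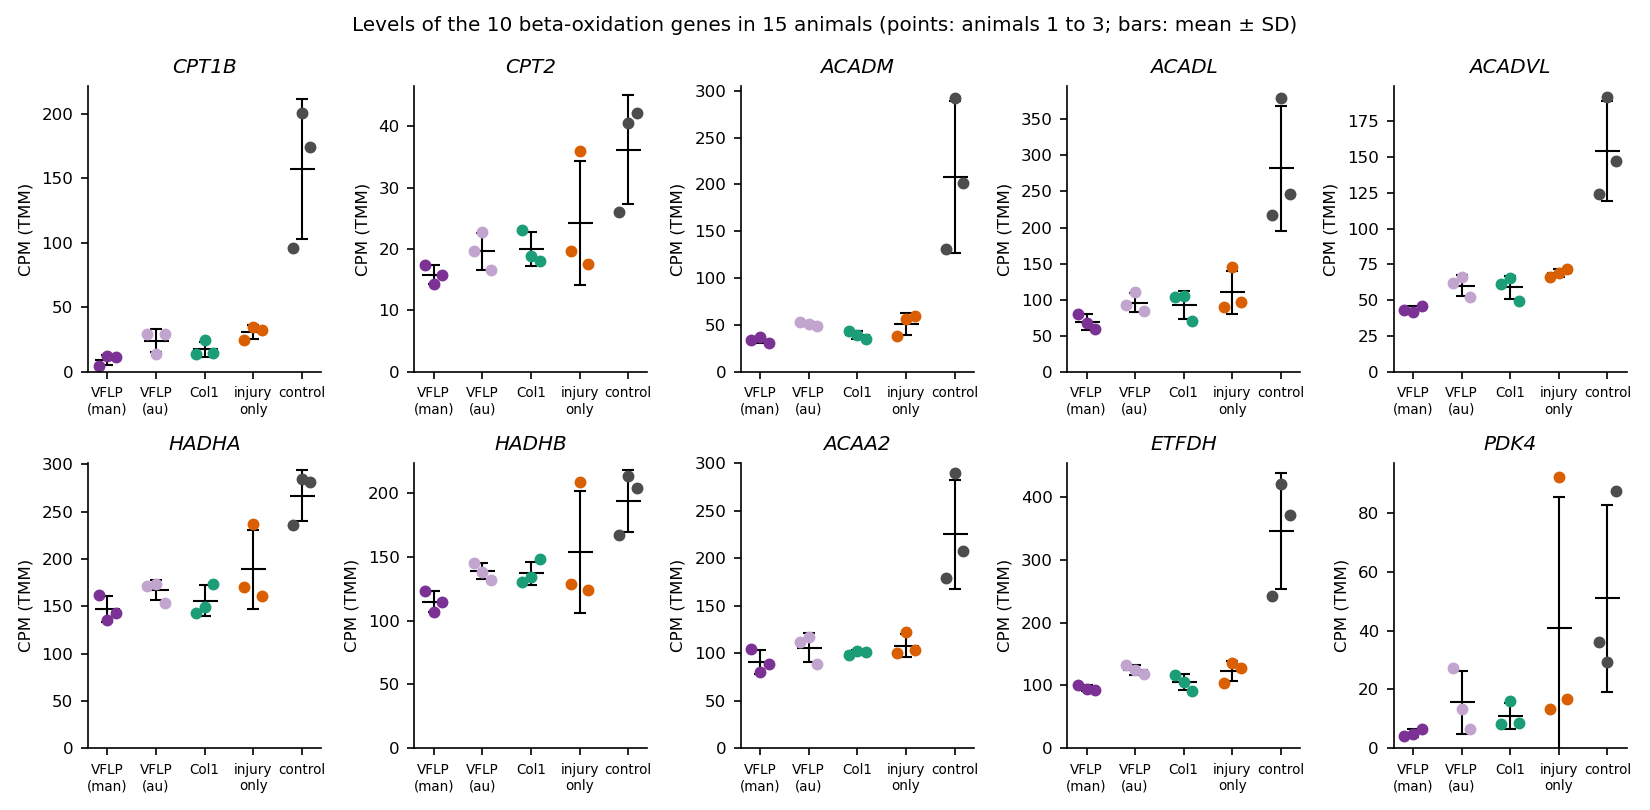
Level of each of the 10 genes (y axis, TMM-scaled CPM from 0; scale differs by panel) in the 3 animals of each group (x axis), with the group mean and SD as bars (the lower SD bar of PDK4 in injury only runs below 0 and is not shown in full). In the panels of CPT1B, ACADM, ACADL, ACADVL, ACAA2 and ETFDH the control points stand above the points of all 12 injured animals, and in those of CPT2, HADHA, HADHB and PDK4 the second injury only animal reaches the control range.

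Of the carnitine shuttle enzymes, CPT1B stood furthest from control and CPT2 much less far. CPT1B, the muscle form of the enzyme that commits long-chain fatty acids to oxidation, stood at 4.47, 11.9 and 11.4 CPM in the VFLP (man) animals 1 to 3, at 29.3, 13.9 and 29.6 CPM in VFLP (au), at 14, 24.3 and 14.5 CPM in Col1, at 25, 34.9 and 32.4 CPM in injury only and at 96.4, 201 and 174 CPM in control. The control animals were all high and all VFLP (man) animals were below every injury only and every control animal. Group means were 9.26 ± 4.16 CPM in VFLP (man), 24.2 ± 8.95 CPM in VFLP (au), 17.6 ± 5.8 CPM in Col1, 30.8 ± 5.17 CPM in injury only and 157 ± 54.3 CPM in control (SD, n = 3 each). CPT1B fell 4.58-fold in injury only against control (log2 -2.19, SE 0.41, edgeR adjusted p = 0.00438). The fall against control was 17.2-fold in VFLP (man) (adjusted p = 8.2e-05), 6.52-fold in VFLP (au) (adjusted p = 0.00159) and 9-fold in Col1 (adjusted p = 0.000499), by edgeR.

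CPT2, which returns the acyl group to coenzyme A inside the mitochondrion, moved less. Its levels were 17.4, 14.3 and 15.7 CPM in VFLP (man), 19.6, 22.7 and 16.6 CPM in VFLP (au), 23.1, 18.9 and 18.1 CPM in Col1, 19.6, 35.9 and 17.5 CPM in injury only and 26.1, 40.5 and 42.1 CPM in control. Injury only animal 2 fell inside the control range and injury only animals 1 and 3 below it. The difference between injury only and control did not pass the test (log2 -0.6, SE 0.27, edgeR adjusted p = 0.126). CPT2 was lower than control in VFLP (man) (2.32-fold, adjusted p = 0.00413), VFLP (au) (1.85-fold, adjusted p = 0.0277) and Col1 (1.82-fold, adjusted p = 0.0265), all by edgeR. Leaving out control animal 2 or 3, or 1 of several animals of the injected group, ended the calls in VFLP (au) and Col1.

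The acyl-CoA dehydrogenases, which take the first step of the spiral and differ in the chain length they prefer, fell together. ACADM, the medium-chain enzyme, had 33.5, 37.6 and 30.9 CPM in VFLP (man), 53, 50.9 and 48.4 CPM in VFLP (au), 43.9, 39.7 and 35.3 CPM in Col1, 37.7, 56.6 and 59.2 CPM in injury only and 131, 292 and 202 CPM in control. The 12 injured animals lay within a narrow band far below control, and injury only overlapped VFLP (au) and Col1. ACADM fell 3.91-fold in injury only against control (log2 -1.97, SE 0.24, edgeR adjusted p = 0.00112). Its mean CPM, over summed folds with the batch D fold of injury only animal 1 included, was 24.6% of the control mean. Its fold against control was 6.22 in VFLP (man), 4.12 in VFLP (au) and 5.3 in Col1, each lower and called.

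ACADL, the long-chain dehydrogenase, ranged over 58.7 to 80.2 CPM in VFLP (man), 84.5 to 110 CPM in VFLP (au), 70.4 to 105 CPM in Col1, 90.2 to 145 CPM in injury only and 218 to 380 CPM in control. ACADVL, the very-long-chain enzyme of the inner membrane, ranged over 42.1 to 46.1 CPM in VFLP (man), 52.3 to 66.1 CPM in VFLP (au), 49.7 to 65.6 CPM in Col1, 66.2 to 71.6 CPM in injury only and 124 to 192 CPM in control. ACADVL was the one gene of the 10 whose 3 injury only animals stood above all animals of each injected group. In injury only against control ACADL fell 2.54-fold (SE 0.25 on the log2 scale, edgeR adjusted p = 0.0041). ACADVL fell 2.16-fold (SE 0.16, edgeR adjusted p = 0.00193). In the injected groups the falls against control were 2.96-fold to 4.15-fold for ACADL and 2.57-fold to 3.57-fold for ACADVL, all called and both largest in VFLP (man).

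The trifunctional protein genes had the smallest differences of the 10 between each injected group and control. HADHA encodes its alpha subunit, with the hydratase and long-chain 3-hydroxyacyl-CoA dehydrogenase activities, and HADHB its beta subunit, the long-chain thiolase. HADHA had 162, 136 and 143 CPM in VFLP (man), 171, 174 and 154 CPM in VFLP (au), 143, 149 and 174 CPM in Col1, 170, 237 and 161 CPM in injury only and 236, 284 and 281 CPM in control. HADHB had 123, 107 and 115 CPM in VFLP (man), 145, 138 and 132 CPM in VFLP (au), 130, 134 and 148 CPM in Col1, 129, 209 and 124 CPM in injury only and 167, 213 and 204 CPM in control. For both subunits injury only animal 2 reached the control range and every other injured animal lay below it. HADHA was 1.43-fold lower in injury only than in control (log2 -0.52, SE 0.16, edgeR adjusted p = 0.0364). This call was lost in 10 of 19 alternative settings. Among them were leaving out control animal 2 or 3 or injury only animal 1 or 3, and the scale of total gene reads (log2 -0.09). The others were left folds alone, a replicate block, the muscle level as a covariate, no filter on low counts, and fitting only the groups compared. HADHB had a log2 difference of -0.35 (SE 0.18, edgeR adjusted p = 0.183), which became 0.08 when total gene reads replaced the TMM factors.

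In the injected groups HADHA was lower than control by 1.84-fold in VFLP (man), 1.61-fold in VFLP (au) and 1.72-fold in Col1, and all 3 calls passed. HADHB was lower by 1.71-fold in VFLP (man) (edgeR adjusted p = 0.00621) and 1.42-fold in Col1 (edgeR adjusted p = 0.0497). In VFLP (au) its log2 difference of -0.49 did not pass (edgeR adjusted p = 0.0633). The call in Col1 lies at the threshold and was lost on leaving out control animal 2 or 3 or any 1 Col1 animal. The genes of both subunits are neighbours in the RefSeq rabbit annotation (assembly mOryCun1.1), and over the 15 animals each was the gene nearest in pattern to the other.

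ACAA2, the thiolase that ends the spiral for medium and shorter chains, ranged over 79.9 to 104 CPM in VFLP (man), 88.8 to 117 CPM in VFLP (au), 98.3 to 102 CPM in Col1, 100 to 122 CPM in injury only and 179 to 290 CPM in control. The 4 injured groups overlapped one another and none reached control. ACAA2 fell 2.09-fold in injury only against control (SE 0.18 on the log2 scale, edgeR adjusted p = 0.00299), and 2.51-fold in VFLP (man), 2.13-fold in VFLP (au) and 2.25-fold in Col1, all called.

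ETFDH, which hands electrons from the flavoprotein to ubiquinone, had 101, 93.7 and 93.3 CPM in VFLP (man), 133, 124 and 118 CPM in VFLP (au), 117, 106 and 91.6 CPM in Col1, 104, 135 and 128 CPM in injury only and 242, 421 and 371 CPM in control. Control again stood apart, and VFLP (au) averaged 125 ± 7.77 CPM beside 123 ± 16.3 CPM in injury only. ETFDH fell 2.76-fold in injury only against control (log2 -1.47, SE 0.18, edgeR adjusted p = 0.00112) and 3.63-fold in VFLP (man), 2.77-fold in VFLP (au) and 3.31-fold in Col1, all called. ETFDH overlaps PPID in the RefSeq annotation. Of its reads 7.36% lay on the other strand, beside at most 0.92% for the other 9 genes, and the counts used here are by strand.

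PDK4, the pyruvate dehydrogenase kinase that fasting and fatty acids raise in muscle, was the most variable of the 10. It had 4.16, 4.94 and 6.66 CPM in VFLP (man), 27.3, 13.3 and 6.42 CPM in VFLP (au), 8.32, 16.1 and 8.66 CPM in Col1, 13.5, 92.3 and 16.6 CPM in injury only and 36.2, 29.3 and 87.5 CPM in control. Injury only animal 2 was above every control animal, and injury only animals 1 and 3 were below all control animals. The difference between injury only and control did not pass (log2 -0.3, SE 0.7, edgeR adjusted p = 0.792). It was -1.66 without injury only animal 2 (edgeR adjusted p = 0.085) and 0.34 without control animal 3, 0.09 without injury only animal 1 and 0.08 without injury only animal 3, and 0.07 on the scale of total gene reads. PDK4 was 9.78-fold lower than control in VFLP (man) (edgeR adjusted p = 0.00635) and 4.64-fold lower in Col1 (edgeR adjusted p = 0.0397). In VFLP (au) the log2 difference of -1.7 did not pass (edgeR adjusted p = 0.103). The Col1 call was lost on leaving out control animal 3 (log2 -1.58, edgeR adjusted p = 0.15) or any 1 Col1 animal.

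**Figure D2:**
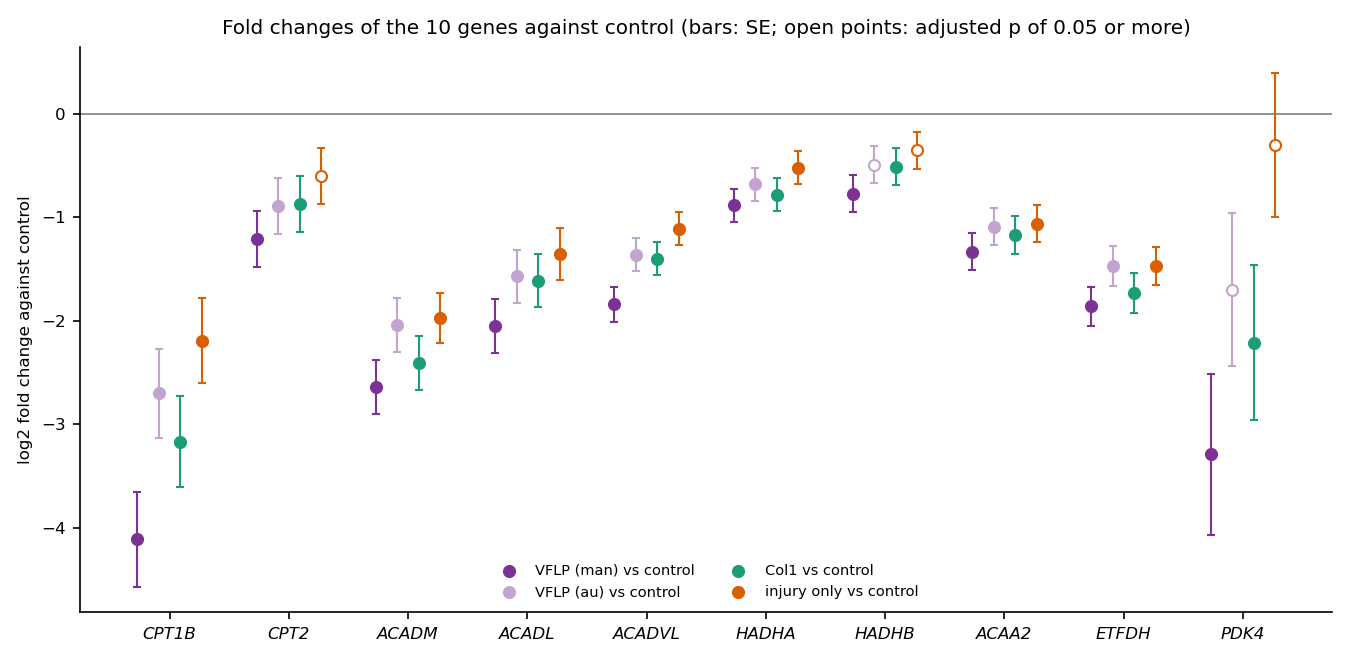
Log2 fold change against control (y axis, where 0 means no difference) of each of the 10 genes (x axis) in the 4 injured groups, coloured by group, with the approximate SE as bars and open points where the adjusted p was 0.05 or more. CPT1B lies lowest at -4.11 in VFLP (man), HADHA and HADHB stay between -0.88 and -0.35, and the points of HADHB and PDK4 in injury only turn to 0.08 and 0.07 when total gene reads set the scale.

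Read as a set, the 10 genes had a median of -1.09 (log2 difference) in injury only against control, beside 0.02 over all 17815 genes tested. Without the batch D library, which leaves batch C alone, the median was -1.08 and the same 7 genes were called. This agreement is no separate check. The batch term of the main fit is set by that library, so the library adds nothing to this comparison. The median of the 10 against control was -1.85 in VFLP (man), beside 0.13 over all 17770 genes, -1.42 in VFLP (au), beside 0.11, and -1.51 in Col1, beside 0.12. Groups did not overlap for 6 of the 10 in injury only against control, where 21.5% of all genes had every injury only animal below every control animal. For all 10 the animals of each injected group lay below every control animal, beside 23.9% of all genes for VFLP (man), 22.3% for VFLP (au) and 23.1% for Col1.

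The scale matters to the smaller of these changes. TMM factors of the control animals were 0.925, 0.647 and 0.795, against 0.977 to 1.17 in the other 12 animals. With total gene reads in their place the median of all genes in injury only against control moved to 0.43, and 6 of the 10 were called (4950 of 17815 genes), all lower and all among the 7 of the TMM scale. The counts against control were then 8 for VFLP (man), 6 for VFLP (au) and 6 for Col1. These counts stand without the number of all genes called, so a change particular to the 10 cannot be read from them.

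A comparison of each injected material with injury only takes injection and material together, since no group was injected without a material. Time after injury may also differ between the groups. For VFLP (man) all 10 log2 differences were negative (median -0.61, beside 0 over all genes) and none was called, in a comparison where 1.06% of 17770 genes passed and 0.99% were lower. At an unadjusted p under 0.05 there were 8 of the 10, beside 17.2% of all genes, and DESeq2 called 3 of the 10 and 1249 of 17770 genes. The level of CPT1B in VFLP (man) stood 3.33-fold below injury only (log2 -1.73, SE 0.42, edgeR adjusted p = 0.0668). In ACADVL the difference was 1.57-fold (SE 0.16 on the log2 scale, edgeR adjusted p = 0.0703), and in PDK4 7.78-fold (SE 0.77, edgeR adjusted p = 0.0864). The animals of VFLP (man) lay below all injury only animals for 8 of the 10, the exceptions being HADHA and ACAA2, beside 13.2% of all genes.

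The single injury only library of batch D, the right fold of animal 1, bears on this comparison. Without it CPT1B (log2 -1.92, edgeR adjusted p = 0.032) and ACADVL (log2 -0.74, edgeR adjusted p = 0.034) were called lower in VFLP (man) than in injury only. With a batch term, which rests on that library alone, the median of the 10 was -0.24 in VFLP (man), 0.19 in VFLP (au) and 0.13 in Col1 against injury only, and none was called. Batch and treatment cannot be told apart in these comparisons.

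For VFLP (au) against injury only the log2 differences ran between -1.37 (PDK4) and 0.04 (ETFDH), with a median of -0.18. EdgeR called 0 of the 10 and 0 of all genes (0%), with 2289 genes at an unadjusted p under 0.05, while DESeq2 called 201 genes and 0 of the 10. Only ACADVL separated the animals of these groups, beside 9.56% of all genes. For Col1 against injury only the differences ran between -1.88 (PDK4) and -0.1 (ACAA2), with a median of -0.26. EdgeR called 0 of the 10 and 0 of all genes (0%), with 2530 at an unadjusted p under 0.05, and DESeq2 called 380 genes and 0 of the 10. The animals did not overlap for CPT1B and ACADVL, beside 11.1% of all genes.

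Among the 3 injected materials, all in batch D, VFLP (man) had the lowest mean of every one of the 10 genes. The F test over the materials called 0 of the 10 and 0 of 17815 genes by edgeR (0%), with 1630 genes at an unadjusted p under 0.05, and DESeq2 called 437 genes and 0 of the 10. CPT1B (edgeR adjusted p = 0.402) and ACADVL (edgeR adjusted p = 0.457) had the smallest p of the 10. The animals of VFLP (au) and Col1 overlapped for every gene but ACADM and ETFDH. How many of all genes separate these groups, or have their lowest mean in VFLP (man), is not given here. The separation of ACADM and ETFDH is therefore not read as a difference between materials.

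The level of the muscle genes moved with several of the 10. Of the 24 muscle genes 14 were called lower in injury only than in control (median log2 -2.06), beside 13.7% of all genes. In VFLP (man) 4 were called lower than in injury only (median log2 -2.73), beside 0.99% of all genes. On the log2 scale, the mean of the 24 muscle genes was 4.88 ± 1.3 in VFLP (man), 7.14 ± 0.66 in VFLP (au), 6.5 ± 0.67 in Col1, 8.02 ± 0.73 in injury only and 10.2 ± 0.59 in control (SD, n = 3 each). Relative to these genes and to the control mean, the log2 level of CPT1B stood at 1.18 in VFLP (man), 0.35 in VFLP (au), 0.56 in Col1 and -0.11 in injury only. CPT1B thus kept close to the muscle genes in injury only and fell less than they did in VFLP (man). HADHB fell much less than the muscle genes, with relative values of 4.56 in VFLP (man), 2.58 in VFLP (au), 3.2 in Col1 and 1.81 in injury only. The values of ACADM lay between, at 2.77 in VFLP (man), 1.1 in VFLP (au), 1.37 in Col1 and 0.2 in injury only.

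With the muscle level as a covariate, 4 of the 10 were still called lower in injury only than in control, where 981 of 17815 genes were called in either direction: ACADM (log2 -1.62, edgeR adjusted p = 0.032), ETFDH (log2 -1.32, adjusted p = 0.032), ACAA2 (log2 -1.19, adjusted p = 0.037) and ACADVL (log2 -0.99, adjusted p = 0.04). CPT1B had -0.95 (edgeR adjusted p = 0.12) in that fit. No gene of the 10 was called in any injected group against control in the same fit, where the number of all genes called is not given. The muscle level of injury only and control animals did not overlap, so that fit has no animals of both groups at one muscle level. What part muscle tissue in the samples had in the results was not tested.

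**Figure D3:**
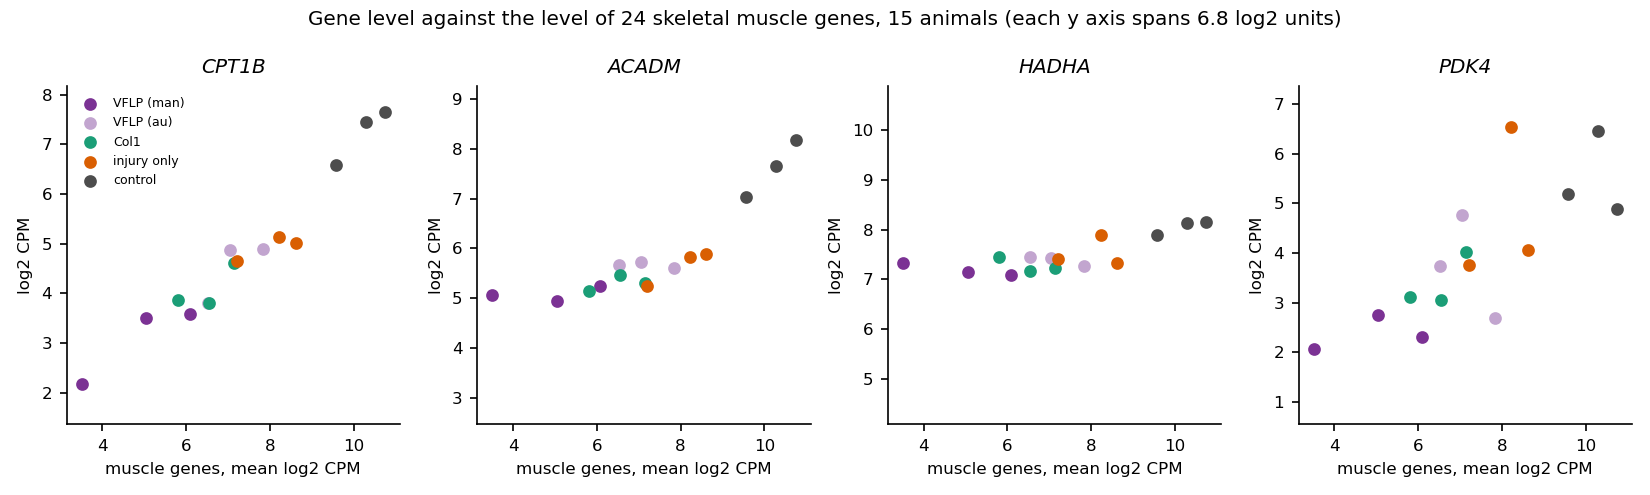
Level of CPT1B, ACADM, HADHA and PDK4 (y axes, log2 CPM, equal spans) against the mean log2 CPM of 24 skeletal muscle genes (x axis) in 15 animals, coloured by group. CPT1B rises with the muscle genes over the whole range, ACADM mainly between injured and control animals, HADHA little, and in PDK4 injury only animal 2 stands high for its muscle level.

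The folds of one animal differed for some of the genes and hardly for others. CPT1B differed between the folds of an animal by a median of 2.23-fold over 15 animals, against 1.04-fold for HADHB and 1.1-fold for HADHA. In control animal 1 CPT1B was at 175 CPM in the right fold and 30.4 CPM in the left, and muscle genes took 7.51% of reads in the right and 1.58% in the left. All 3 control animals had higher levels of all 10 genes in the right fold than in the left, except for CPT2 in 1 animal. In left folds alone none of the 10 was called between injury only and control, where edgeR called 0 of 16601 genes (3756 at an unadjusted p under 0.05), and in right folds alone 7 were called, beside 4348 of 16576 genes. Leaving out the left fold of control animal 1 gave 8 of the 10, beside 5666 of 17791 genes, adding CPT2 (log2 -0.7, edgeR adjusted p = 0.04).

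**Figure D4:**
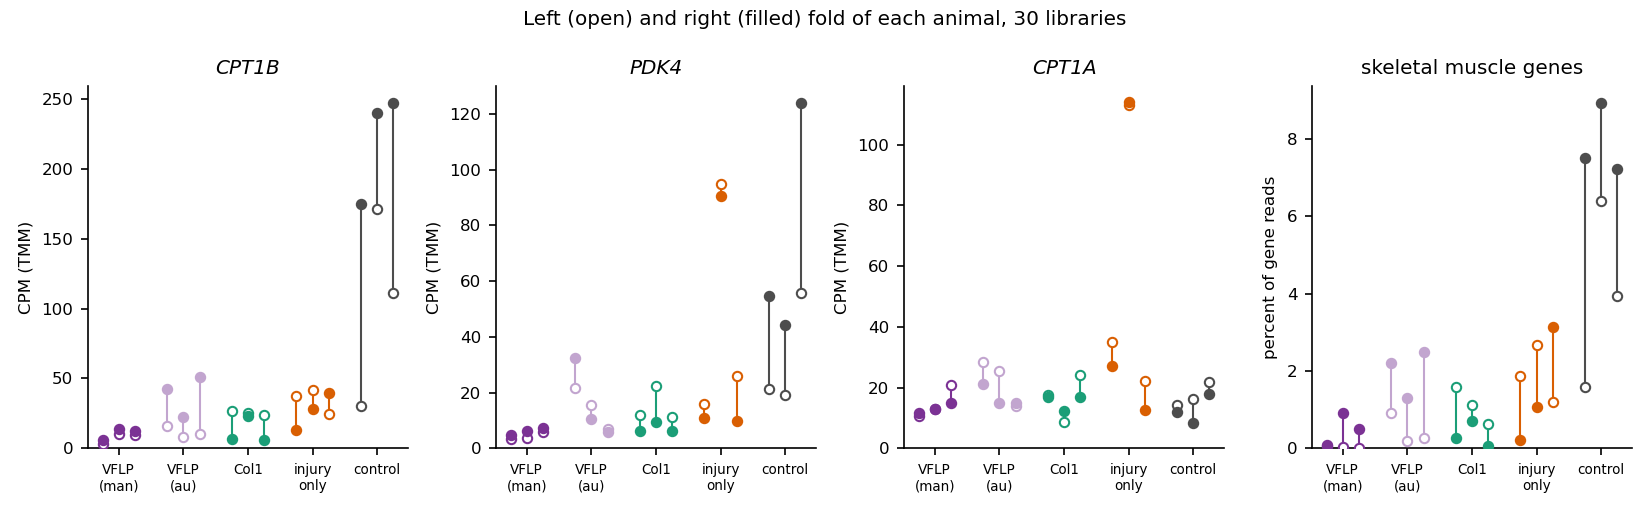
Left (open) and right (filled) fold of each animal joined by a line, for CPT1B, PDK4 and CPT1A (y axes, TMM-scaled CPM) and for the share of gene reads taken by skeletal muscle genes (y axis, percent), by group (x axis). The folds of control animal 1 lie far apart for CPT1B (175 and 30.4 CPM) and for muscle genes, while both folds of injury only animal 2 are high for PDK4 (90.6 and 94.9 CPM) and CPT1A (114 and 113 CPM).

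The other genes of the pathway came from fixed lists, and they did not all move with the 10. In injury only against control 13.7% of all genes were called lower and 8.33% higher. These shares stand beside each list count given for that comparison. Fatty acid uptake and activation held the lowest single values: 7 of 12 genes were called in injury only against control, 6 lower and 1 higher (median log2 -1.29). CD36, the fatty acid translocase, fell 11.7-fold (12.3 ± 6.63 CPM in injury only and 158 ± 85.2 CPM in control; edgeR adjusted p = 0.00214). FABP3, the fatty acid binding protein of heart and muscle, fell 9.58-fold (15.2 ± 1.99 CPM in injury only and 173 ± 64.3 CPM in control; edgeR adjusted p = 0.002). ACSL5, an acyl-CoA synthetase of the mitochondrial and reticulum membranes named after its value was seen, was the gene that rose (1.68-fold, edgeR adjusted p = 0.00963). ACSL6, another acyl-CoA synthetase, fell 7.35-fold and GOT2, the mitochondrial aspartate aminotransferase, 3.61-fold. In VFLP (man) against injury only 0.99% of all genes were called lower. In this list 3 genes were called there, all lower: FABP3 (12.1-fold), ACSL6 (12.4-fold) and LPL (19.9-fold), the lipoprotein lipase. These 3 calls were lost in right folds alone, with the batch term, with the muscle covariate, and on leaving out injury only animal 2 or 3 or VFLP (man) animal 1 or 3. With the batch term the log2 difference became -1.41 for FABP3, 0.6 for ACSL6 and -0.59 for LPL.

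Of 6 other genes around the carnitine shuttle, CRAT fell and CPT1A rose in injury only against control, and 4 were not called. CRAT, the carnitine acetyltransferase that buffers acetyl-CoA, fell 4.22-fold (edgeR adjusted p = 0.00112), and it was 2.62-fold lower in VFLP (man) than in injury only (edgeR adjusted p = 0.043). That second call was lost in right folds alone, with the muscle covariate, on leaving out any 1 VFLP (man) animal or injury only animal 2 or 3, and with the batch term, where the log2 difference was 0.02. CPT1A had 11.1, 12.7 and 18.2 CPM in VFLP (man), 25.4, 20.9 and 14.6 CPM in VFLP (au), 17.1, 10.5 and 20.4 CPM in Col1, 30.9, 113 and 16.5 CPM in injury only and 12.8, 13.6 and 20.7 CPM in control. All groups overlapped but for the high injury only animal 2. The 3.46-fold rise of CPT1A (edgeR adjusted p = 0.038) rests on that animal, without which the log2 difference was 0.69 (edgeR adjusted p = 0.23). The call was also lost on leaving out control animal 1, 2 or 3 (edgeR adjusted p = 0.093, 0.13 and 0.058). It was lost as well in left folds alone, with the muscle covariate, with the replicate block and when only the groups compared were fitted. On the log2 scale and relative to control, the ratio of CPT1A to CPT1B stood at 3.98 ± 0.61 in VFLP (man), 3.07 ± 0.8 in VFLP (au), 3.14 ± 0.93 in Col1 and 3.63 ± 1.33 in injury only (SD, n = 3 each; control 0 ± 0.52). The lowest of the 12 injured animals was at 2.08 and the highest control animal at 0.37. CPT1B alone separated the same animals (control at least 96.4 CPM, injured at most 34.9 CPM), so the separation of the ratio is no further result. CPT1A was not called in any injected group against control. SLC25A20, the carrier that takes acylcarnitines across the inner membrane, had a log2 difference of -0.78 (edgeR adjusted p = 0.0553), and -1.2 without injury only animal 2 (edgeR adjusted p = 0.01).

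Injury only animal 2 was high in several genes of this pathway at once. It had the highest level of the 12 injured animals for 8 of the 10 genes, all but ACADM and ACADVL, and for CPT1A and SLC25A20. Without it, CPT2 (log2 -1, edgeR adjusted p = 0.017) and HADHB (log2 -0.64, edgeR adjusted p = 0.013) were called lower in injury only than in control, which made 9 of 10, beside 2924 of 17771 genes.

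Of 14 other genes of the mitochondrial spiral 6 fell, 8 were not called and none rose in injury only against control (median log2 -0.61). DECR1, needed for unsaturated chains, fell 2.2-fold, ECH1, another enzyme of unsaturated chains, 2.63-fold, ECHS1, the short-chain hydratase, 2.17-fold, and ACOT13, an acyl-CoA thioesterase, 4.29-fold. ETFA, the alpha subunit of the electron transfer flavoprotein, fell 1.6-fold (edgeR adjusted p = 0.0302). Peroxisomal oxidation, which shortens very long chains outside mitochondria, was split, with 3 of 11 genes lower and 2 higher (median log2 0.03). Over all genes 13.7% were called lower and 8.33% higher. EHHADH, the peroxisomal bifunctional enzyme, rose 2.41-fold (33.9 ± 4.92 CPM in injury only and 14.1 ± 2.21 CPM in control; edgeR adjusted p = 0.0218). ACAA1, the peroxisomal thiolase, rose 1.56-fold (edgeR adjusted p = 0.0224). ABCD2, a peroxisomal transporter of fatty acyl-CoA, fell 3.15-fold. The EHHADH call was lost on leaving out control animal 2 or 3 or injury only animal 2, and the ACAA1 call on leaving out control animal 2 or injury only animal 1 or 3.

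**Figure D5:**
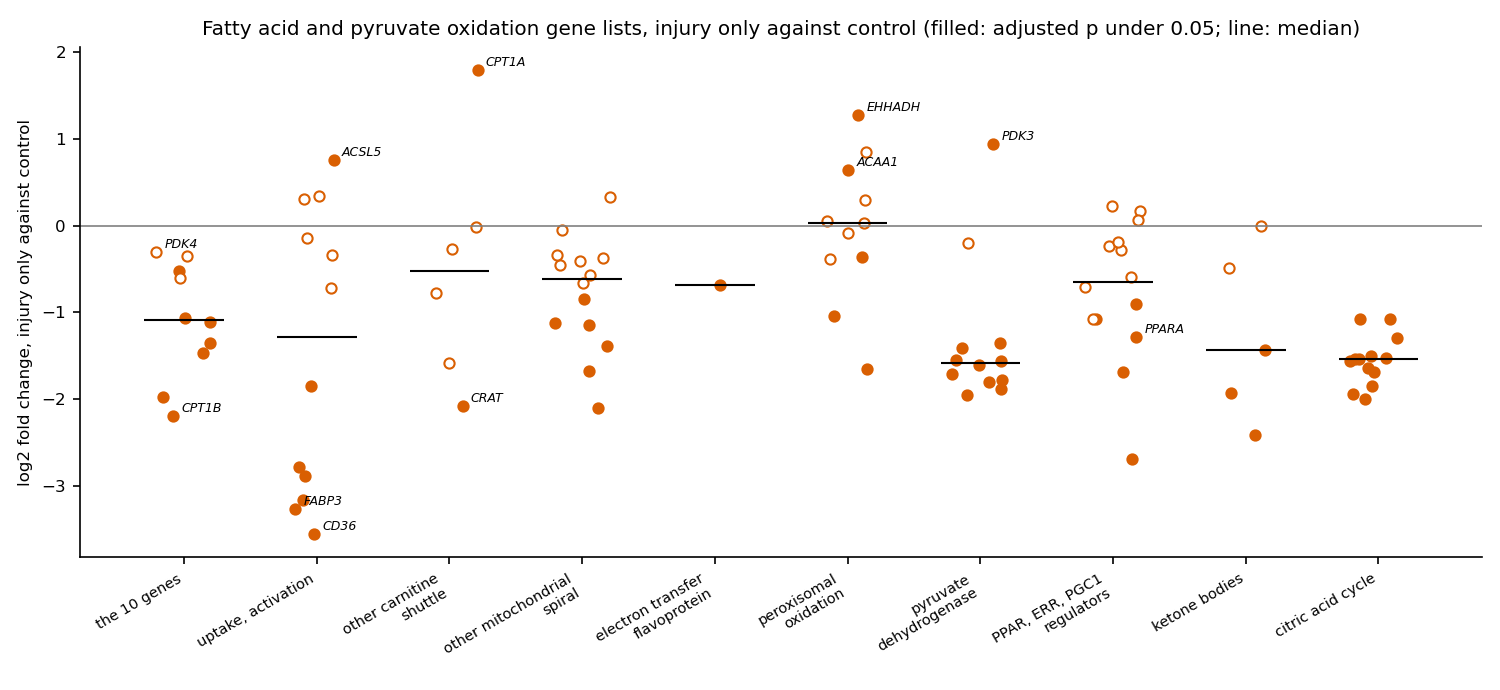
Log2 fold change in injury only against control (y axis) of every tested gene of 10 gene lists (x axis), filled where the adjusted p was under 0.05, with the list median as a line. The pyruvate dehydrogenase and citric acid cycle lists sit lowest as groups (medians -1.58 and -1.54), CD36 is the lowest gene at -3.55, and CPT1A, EHHADH, PDK3, ACSL5 and ACAA1 are the filled points above 0; the points of HADHB and PDK4 among the 10 genes turn to 0.08 and 0.07 on the scale of total gene reads.

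Genes for the oxidation of pyruvate, which PDK4 restrains, mostly fell. Of 12 genes of the pyruvate dehydrogenase complex and its regulators 10 were called lower and 1 higher in injury only against control. PDHA1, the catalytic alpha subunit, fell 3.42-fold (168 ± 24.6 CPM in injury only and 582 ± 208 CPM in control), PDHX, the binding protein of the complex, 3.85-fold, PDHB, the beta subunit, 3.05-fold and MPC1, a subunit of the mitochondrial pyruvate carrier, 3.67-fold. The other pyruvate dehydrogenase kinases, named here after their values were seen, went different ways. PDK1 fell 3.27-fold (edgeR adjusted p = 0.00342) and PDK2 3.49-fold (edgeR adjusted p = 0.00232). PDK3 rose 1.92-fold (92.9 ± 3.31 CPM in injury only and 48.5 ± 11.4 CPM in control; edgeR adjusted p = 0.00193). All 13 citric acid cycle genes fell (median log2 -1.54), among them DLST, IDH3A and MDH2.

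Set against the citric acid cycle genes, the 10 genes divided. Relative to the mean log2 level of those 13 genes and to control, CPT1B stood at -2 in VFLP (man), -1.01 in VFLP (au), -1.3 in Col1 and -0.74 in injury only. ETFDH stayed near them, at 0.33 in VFLP (man), 0.27 in VFLP (au), 0.15 in Col1 and 0.09 in injury only. HADHB lay above them, at 1.38 in VFLP (man), 1.22 in VFLP (au), 1.33 in Col1 and 1.18 in injury only, and HADHA at 1.27, 1.02, 1.05 and 1.04 in the same groups.

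Among 14 regulators of these genes 5 fell and 9 were not called in injury only against control (median log2 -0.65). PPARA, a nuclear receptor that drives fatty acid oxidation genes, fell 2.43-fold (edgeR adjusted p = 0.00338). PPARGC1B, a coactivator of mitochondrial genes, fell 3.22-fold, ESRRA, an orphan nuclear receptor acting with it, 2.1-fold, and TFAM, which maintains mitochondrial DNA, 1.87-fold. Of 5 genes of ketone body and acetate use 3 fell: BDH1 3.81-fold, OXCT1 2.7-fold and ACSS1 5.31-fold.

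The same lists in the injected groups, set against the same control animals, are given side by side. Over all genes 20.5% were called lower and 16.7% higher than control in VFLP (man). These shares were 16.7% and 10.8% in VFLP (au) and 18.6% and 13.5% in Col1. All 13 citric acid cycle genes were lower than control in each injected group, with medians of -2.19 in VFLP (man), -1.76 in VFLP (au) and -1.92 in Col1. Of the 14 other spiral genes 11 were lower in VFLP (man), 9 in VFLP (au) and 10 in Col1, and none was higher. In peroxisomal oxidation 2 genes were lower and 4 higher than control in VFLP (man), 3 lower and 2 higher in VFLP (au), and 3 lower and 2 higher in Col1. SCP2, whose larger product is the peroxisomal thiolase for branched chains, was among the higher ones in each (1.53-fold in VFLP (man), 1.37-fold in VFLP (au) and 1.31-fold in Col1). These falls and rises stand on the scale of TMM factors and without a batch term.

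Markers of other cell types also differed between the groups. In injury only against control, of 9 ciliated epithelium genes found 2 rose, of 7 secretory epithelium genes 4 rose and of 8 tested leukocyte genes 4 rose, beside 8.33% of all genes called higher. Of 9 endothelial genes 2 fell and of 10 fibroblast genes 4 fell, beside 13.7% of all genes called lower, while none of 9 squamous epithelium genes was called. Squamous epithelium genes took 1.85 to 2% of gene reads in injury only and 0.719 to 2.05% in control animals. Adipocyte genes, which would mark fat in the samples, took at most 0.0169% in any animal. Their part in the results for the 10 genes was not tested.

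The genes nearest in pattern to the 10 were sought over the 15 animals, by the mean absolute difference of log2 CPM after centring each gene on its own mean. This likeness reflects group differences, muscle level and scale as well as the gene. Nearest to the mean of the 10, among 12283 genes with at least 1 CPM on average, were CREM (0.126), SLC25A20 (0.13), FAM210A (0.134), NDUFA8 (0.134) and ATP2A2 (0.138), where the median over all genes was 0.645. CPT1B was nearest to COQ8A (0.135), ACADM to NDUFS1 (0.096), ACADL to SDHC (0.133) and ACADVL to NDUFB11 (0.093). HADHA and HADHB were nearest to each other (0.095), ACAA2 to MRPS28 (0.079), ETFDH to VDAC2 (0.078) and CPT2 to PLEKHO2 (0.157). PDK4 had no close neighbour: FBLN2, the nearest, was at 0.54, and PDK4 (0.653) and CPT1B (0.641) were themselves as far from the mean of the 10 as the median gene.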

How the data were processed

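Raw counts of reads per gene were deposited for 30 libraries, made by the authors with STAR 2.7.10b per the submitters' processing notes, and neither labels nor notes used here name a genome build. Libraries were stranded (KAPA mRNA HyperPrep, per the labels' protocols), so the deposited count on the strand of the second read was used. The 4 entries that name no gene (23.2 to 44.7% of reads) were left out. The folds of an animal were summed. Tests used R 4.3.3 with edgeR 4.0.16 (TMM, filterByExpr with a minimum count of 10, quasi-likelihood F test, adjusted p under 0.05 over all genes tested). Injury only against control and the test among materials used 16 units with a batch term, 1 animal being divided by batch, and other tests 15 animals without it. For injury only against control, the batch D fold of animal 1 sets the batch term and adds nothing to the log2 difference. The SE is the log2 fold change over the square root of F. DESeq2 1.42.0 was an alternative.

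The genes and lists (190 of 210 list genes found) were chosen with earlier results of these data known. Named list genes are the 4 of smallest p per list, of which some are not reported here. The main fits did not use replicate numbers to pair animals. Residual correlations of same-numbered animals ran from -0.563 to 0.448 (median -0.0289), beside -0.478 to 0.504 (median 0.0151) for different numbers. RefSeq tables served for names and neighbours. The tests were checked on simulated data. Since labels give separate animals, p-values measure spread between animals.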

Additional observations from a re-analysis of the deposited data

Results flagged for a closer look

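Libraries were compared within each group of 6 for each of the 10 genes (50 groups in all), and a library was set apart where its gap to the nearest other, as a share of the group's range, passed Dixon's critical value. Chance sets about 1 in 20 groups apart where the values are independent and normally spread. The 6 libraries are the left and right folds of 3 animals, so that rate need not hold here. For PDK4 the right fold of control animal 3 had 124 CPM, against 19.2 to 55.6 CPM in the other 5 control libraries (gap 0.65 of the range). The left fold of Col1 animal 2 had 22.3 CPM of PDK4, against 6.13 to 11.9 CPM in the other 5 Col1 libraries (gap 0.64 of the range).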

How the results depend on the processing

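Alternatives moved the counts of genes called as follows. The counts are of the 10 genes, without the number of all genes called. A general gain or loss of calls is therefore not told apart from one of the 10. Leaving out 1 animal in turn gave 6 to 9 of the 10 in injury only against control (7 with all animals), 7 to 10 in Col1 (10), 10 to 10 in VFLP (man) (10) and 7 to 9 in VFLP (au) (8) against control, 7 to 10 in the F test over 5 groups (10) and 0 in all other comparisons. Left folds alone gave 0 in injury only, 0 in Col1 and 5 in VFLP (au) against control, 2 in VFLP (man) against injury only and 6 in the F test over 5 groups. A batch term gave 0 in Col1, 0 in VFLP (man) and 0 in VFLP (au) against control and 6 over 5 groups. The muscle covariate gave 4 in injury only, and 0 in each injected group against control and over 5 groups. Total gene reads gave 6 in Col1 against control and 1 in VFLP (man) against injury only, where DESeq2 gave 3 and leaving out the batch D library of injury only gave 2. The scale of total gene reads and both left-out libraries were chosen after seeing the data. The replicate block gave 10 in VFLP (man), 8 in VFLP (au), 9 in Col1 and 6 in injury only against control, 9 over 5 groups and 0 elsewhere, and it ended the calls of HADHA and CPT1A in injury only and of HADHB in Col1 against control and of LPL and RXRG in VFLP (man) against injury only, and made a call of SLC25A20 in injury only. The numbers share no animal or litter in the labels.

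Directions turned as follows, some from differences far from 0 (ACSL6 -3.64, CRAT -1.39 and ACACB -1.58, and PDK4 -1.88 in Col1 and -1.37 in VFLP (au) against injury only and -1.7 in VFLP (au) against control). The cause was not tested. With the batch term, log2 differences against injury only became, in Col1, 0.49 (CPT1B), 0.04 (CPT2), 0.48 (ACADM), 0.16 (ACADL), 0.13 (ACADVL), 0.13 (HADHB), 0.08 (ACAA2), 0.2 (ETFDH) and 0.04 (PDK4). In VFLP (au) they became 0.95 (CPT1B), 0.01 (CPT2), 0.21 (ACADL), 0.17 (ACADVL), 0.15 (HADHB), 0.16 (ACAA2) and 0.55 (PDK4), and in VFLP (man) 0.25 (ACADM), 0.07 (ETFDH), 0.02 (CRAT) and 0.6 (ACSL6). PDK4 in VFLP (au) against control became 0.25. With the muscle covariate, CPT1B turned to 0.06 in Col1 and 0.14 in VFLP (au) and ACADM to 0.07 in VFLP (man) against injury only, and ACACB to 0.3 in injury only against control. In VFLP (au) against injury only, ACADM turned to -0.03 with DESeq2 and with its size factors, -0.01 without a filter, -0.29 in left folds and -0.09 without the batch D library, and ETFDH to -0.32 in left folds and -0.02 without that library. Right folds alone gave 0.55 (CPT1B), 0.09 (ACADL), 0.14 (ACADVL) and 0.06 (ACAA2) there, and total gene reads 0 (ACAA2). In injury only against control, left folds gave 0.51 (PDK4), and total gene reads 0.07 (PDK4) and 0.08 (HADHB).

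Leaving out 1 animal turned these log2 differences, given as ranges. In VFLP (au) against injury only they were -0.07 to 0.11 (ETFDH), -0.18 to 0.13 (ACADM), -0.09 to 0.08 (ACAA2), -0.27 to 0.01 (HADHA), -0.33 to 0.03 (ACADL), -2.05 to 0.06 (PDK4), -0.48 to 0.08 (CPT2) and -0.27 to 0.13 (HADHB). In Col1 against injury only they were -0.46 to 0.12 (CPT2) and -0.29 to 0.12 (HADHB). In injury only against control the range was -1.66 to 0.34 (PDK4).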
